A study of Rattus norvegicus with 6 samples.

Results

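The DEAD-box and DEAH-box helicases are the enzymes that unwind or remodel RNA at nearly every step of its life. The genes described here are the 41 whose platform symbol begins with Ddx or Dhx and a number, of 18166 genes tested, with Ddx5, Ddx6 and Ddx17 left out and the brightest probe set used for each gene. Of these genes 26 carry Ddx and 15 carry Dhx symbols. A further 3 probe sets whose symbol field holds several genes were not assigned to any of them. RNA came from primary hippocampal neurons of rat embryos at day 18, cultured with 10 µM FUDR, a nucleoside analogue that blocks dividing cells. At 4 days in vitro the cultures received adeno-associated virus (1800000 infectious units per ml) encoding a short hairpin RNA (shRNA), either the control one or one that targets Ncoa3, a coactivator of nuclear receptors. The neurons were harvested at 14 days in vitro. Each of 3 experiments gave 1 Affymetrix array with control shRNA and 1 with Ncoa3 shRNA, 6 arrays in all. Every culture received virus and FUDR, and no uninfected culture entered the comparison. The labels describe 1 kind of Ncoa3 shRNA group, and what drives the shRNA is not given in them.

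These enzymes share a core of RecA-like domains that bind ATP and RNA, and the letters D-E-A-D or D-E-A-H in a conserved motif give the family its names. DEAD-box proteins pull apart short duplexes or clamp onto RNA, while many DEAH-box proteins move along a strand and strip off what is bound to it. In neurons they act in splicing, in mRNA export, in ribosome assembly, in granules that carry mRNA into dendrites, and in local translation. The results follow these roles, from the nucleus to the ribosome.

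The array signals had properties that touch every value below. The deposited log2 signals were lower with Ncoa3 shRNA over all genes, with a median difference of -0.25, and the arrays of a group shared exact values. Of all genes 22.5% had the same deposited value on all control arrays and 22.4% on all Ncoa3 shRNA arrays. Whether each group was summarised in a run of its own is not stated in the labels, and run and shRNA group cannot be told apart. Changes are therefore given after all 6 arrays were put on 1 distribution (quantile normalization), as Ncoa3 shRNA minus control in log2 units, and are called normalized. Ncoa3 itself had deposited signals of 8.79, 8.88 and 8.37 with control and of 7.43, 7.43 and 7.39 with Ncoa3 shRNA in experiments 1, 2 and 3. Its groups did not overlap. It fell by 0.97 ± 0.142 (SE, 3 arrays a group) after normalization, with an adjusted p of 0.00747 in limma's test, and lost its call without experiment 1 (0.134) or experiment 2 (0.123). Neuron markers lay above the floor set by olfactory and vomeronasal receptor genes (a log2 signal of 7.02) for 11 of 11 measured genes, astrocyte markers for 6 of 7 and microglia markers for 1 of 7. In bulk RNA, fewer cells of a type and less RNA per cell cannot be told apart.

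Few helicase genes passed the test between the shRNA groups when the experiment number was left out of the model. Of the 41 genes 2 fell and 1 rose at an adjusted p of 0.05 in limma's test, 7.32% of them, while 19.5% of all genes passed, 10.5% as higher and 9.04% as lower. The genes that fell were Ddx3x, a regulator of translation initiation, and its relative Ddx3, and the gene that rose was Ddx4, the germ-line helicase known as Vasa. Without experiment 1 or without experiment 2, limma's test passed 0 of the 41 (3 at an unadjusted p of 0.05 in each case), and 1.23% and 0% of all genes. Among genes above the floor 11.3% passed, against 1 of 38 helicases, Ddx3x. The median change was -0.07 over the helicases and 0.01 over all genes, with 27 helicases below 0 and 14 above. Control and Ncoa3 shRNA arrays did not overlap for 12 helicases, 5 higher and 7 lower, or 29.3%, where 40.5% of all genes were apart, 21.5% higher and 19.0% lower. The helicases had a median SE of 0.129, against 0.0791 over all genes and 0.0918 over genes above the floor.

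With the experiment number as a block, 10 helicases passed, 4 higher and 6 lower, or 24.4%, where 39.3% of all genes did, 20.8% as higher and 18.6% as lower. The 7 genes added were Ddx1, Ddx20, Ddx39a and Dhx40 on the lower side and Ddx28, Ddx59 and Dhx58 on the higher. In the deposited values 17 helicases passed, 1 higher and 16 lower (41.5%, where 47.2% of all genes passed, 3.97% as higher and 43.3% as lower), and the median difference over the helicases was -0.30. With the block on deposited values 26 passed (63.4%, against 60.2% of all genes), after cyclic loess 5 (12.2%, against 25.4%) and with arrays centred on their medians 6 (against 21.5% of all genes). In the fit without the block, where 19.5% of all genes passed, markers of the cell types gave these counts. Of 7 microglia markers 2 were higher and 1 lower, with a summed signal of 9.16 to 9.43 with control and 9.07 to 9.51 with Ncoa3 shRNA. Of 8 oligodendrocyte-lineage markers 1 was higher and 2 lower (11.13 to 11.27 and 10.82 to 11.03), and of 6 fibroblast and vessel markers 1 was higher (11.10 to 11.43 and 11.32 to 11.62). Of 5 dividing-cell markers 1 was higher (8.95 to 9.20 and 8.62 to 8.83). That marker was Top2a, below the floor, with a deposited value of 6.27 on every control array and 6.28 on every Ncoa3 shRNA array. The higher oligodendrocyte-lineage marker, Pdgfra, was likewise below the floor, at 6.34 and 6.38. So was the lower microglia marker, Ptprc, at 5.59 and 5.11 on every array of each group. The p-values of these markers do not measure variation between cultures. Aif1, Mog and Sox10, which also passed, each had the same deposited value on all control arrays. Of 11 neuron markers 0 passed in limma's test, 1 at an unadjusted p of 0.05 (15.89 to 16.00 and 15.80 to 15.88), and of 7 astrocyte markers 0 passed, also at an unadjusted p of 0.05 (12.83 to 13.18 and 12.43 to 12.96). These sums are deposited log2 values, and the part of these cells in the helicase changes was not tested.

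**Figure D1:**
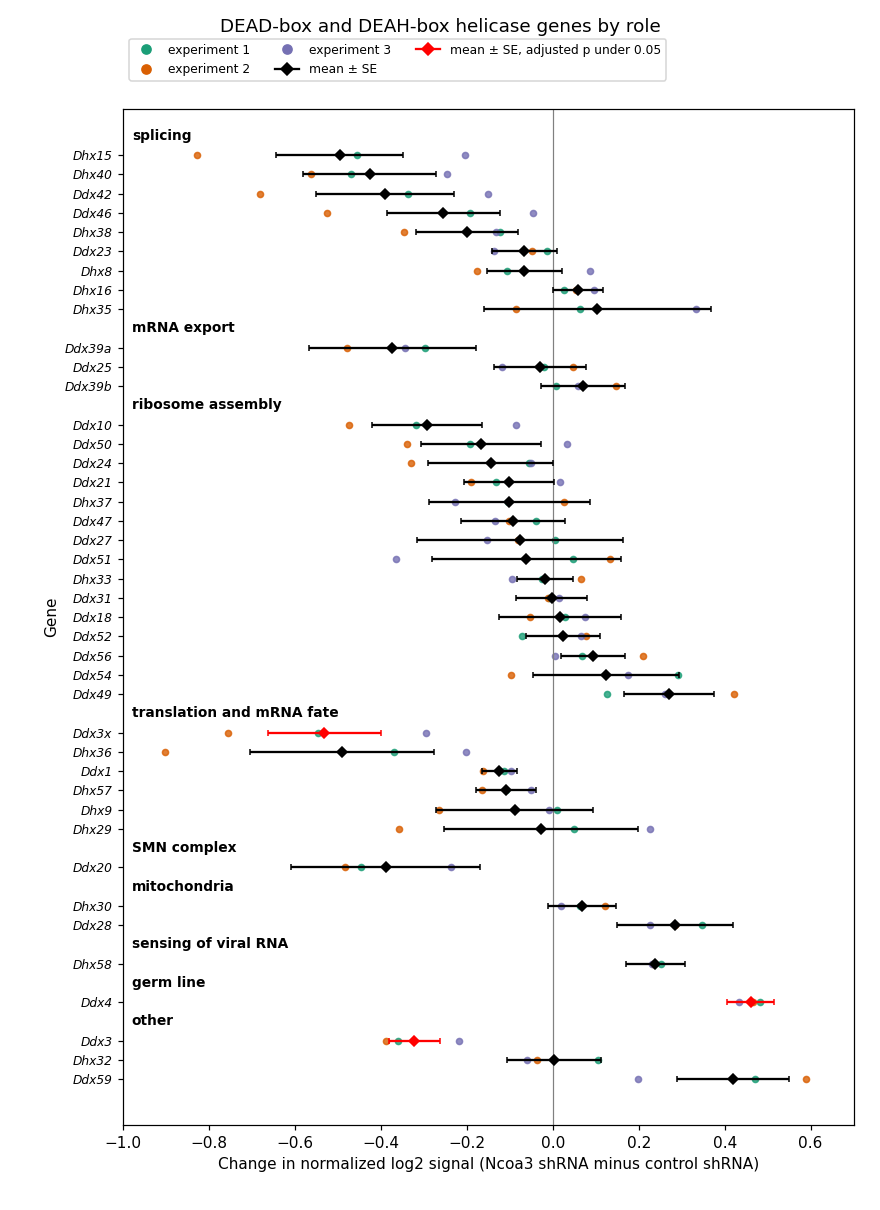
Change in normalized log2 signal (x axis, Ncoa3 shRNA minus control shRNA) for the 41 helicase genes (y axis), grouped by role, with a circle for each experiment and a diamond with its bar for the mean ± SE from limma's fit. The red diamonds are the genes past an adjusted p of 0.05, which were Ddx3x and Ddx3 below 0 and Ddx4 above, and the circles of experiment 2 lie farthest to the left for Dhx15, Dhx36 and Ddx3x.

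The promoters of 37 of the 41 genes were found by gene ID in RefSeq's table (build GRCr8), each from 250 bases before to 50 bases after the start of the gene. Those of Ddx3x and Ddx4 are shown because these genes passed the test and have an entry, and that of Dhx36 because it had the largest change of the 4 helicases whose promoter holds AGGTCA, the half-site that many nuclear receptors bind, a choice made after the values were seen. All 3 are written 5′ to 3′ along the gene, on the minus strand of the genome, at chrX:12165934-12166233 for Ddx3x, chr2:46015902-46016201 for Ddx4 and chr2:149044142-149044441 for Dhx36. Capitals mark matches, on either strand, to any of 7 motifs.
Ddx3x: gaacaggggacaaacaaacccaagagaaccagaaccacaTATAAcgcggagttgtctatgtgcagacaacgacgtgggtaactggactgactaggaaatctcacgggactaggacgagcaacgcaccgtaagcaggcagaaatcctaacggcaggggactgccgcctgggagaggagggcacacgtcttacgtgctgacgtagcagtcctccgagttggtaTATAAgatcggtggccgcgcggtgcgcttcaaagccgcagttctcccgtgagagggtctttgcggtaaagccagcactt
Ddx4: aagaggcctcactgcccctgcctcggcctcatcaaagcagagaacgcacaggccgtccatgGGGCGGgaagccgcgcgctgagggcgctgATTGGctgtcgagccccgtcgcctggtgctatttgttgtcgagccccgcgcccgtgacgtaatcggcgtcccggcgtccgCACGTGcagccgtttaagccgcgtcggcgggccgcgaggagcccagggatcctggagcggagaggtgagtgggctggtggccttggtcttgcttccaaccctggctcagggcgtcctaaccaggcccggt
Dhx36: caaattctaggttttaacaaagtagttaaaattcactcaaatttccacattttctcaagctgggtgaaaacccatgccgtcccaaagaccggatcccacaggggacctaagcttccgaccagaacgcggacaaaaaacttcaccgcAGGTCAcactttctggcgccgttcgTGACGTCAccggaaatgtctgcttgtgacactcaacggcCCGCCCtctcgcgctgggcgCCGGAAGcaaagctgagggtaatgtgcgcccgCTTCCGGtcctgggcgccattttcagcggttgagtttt

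Both strands were searched for each motif, and none of the motifs contains another. The half-site AGGTCA was in 4 of 37 helicase promoters (10.8%) and in 13.4% of the 14504 tested genes with an entry, or 11.4% of those above the floor. The members with it were Ddx46, Dhx33, Dhx35 and Dhx36. CCGGAAG, a core that factors of the ETS family bind, was in 17 (45.9%), against 12.5% of all and 16.8% of those above the floor. TGACGTCA, the site of CREB and its relatives, was in 4 (10.8%, against 2.42% and 3.12%), and TATAA, the TATA-box letters, in 2 (5.41%, against 21.4% and 13.6%). The GC box GGGCGG was in 23 (62.2%, against 48.0% and 61.4%), the CCAAT box in 18 (48.6%, against 37.9% and 37.3%) and the E-box CACGTG in 7 (18.9%, against 7.87% and 9.75%). The motifs were chosen with the changes known. A match describes the letters of the window, and binding was not measured.

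Splicing helicases drive the spliceosome through its rearrangements, and 9 of them were measured. In limma's test 0 of them passed (2 at an unadjusted p of 0.05), where 19.5% of all genes did. Of the 9, 7 lay below 0, and 3 were lower without overlap between the groups, where 19.0% of all genes were. Dhx15, which takes apart spent spliceosomes, had normalized signals of 9.81, 10.10 and 9.51 with control shRNA in experiments 1, 2 and 3, and of 9.36, 9.27 and 9.31 with Ncoa3 shRNA. All 3 Ncoa3 shRNA arrays lay close together below the lowest control array. The difference of -0.50 ± 0.148 (SE) missed the threshold in limma's test (adjusted p = 0.0656) and met it after cyclic loess (0.0478). Dhx40, a DEAH-box protein placed with this group, stood at 8.14, 8.05 and 7.62 with control and at 7.67, 7.48 and 7.38 with Ncoa3 shRNA. The groups overlapped by a narrow margin, since control in experiment 3 lay below Ncoa3 shRNA in experiment 1, while each experiment showed a difference below 0. At -0.43 ± 0.155 (SE) it missed the threshold (adjusted p = 0.112) and met it with the experiment as a block (0.0234) and with median-centred arrays (0.0361).

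The other splicing genes differed less. Ddx42, a partner of the SF3b proteins of the U2 particle, stood at -0.39 (adjusted p = 0.149) and Ddx46, the counterpart of yeast Prp5 at the branch site, at -0.25 (0.236), both lower without overlap. The deposited value of Ddx46 was the same on all 3 Ncoa3 shRNA arrays. Dhx38, which remodels the spliceosome between its catalytic steps, stood at -0.20 (0.295) and Dhx8, which releases spliced mRNA, at -0.07 (0.646). Ddx23, a component of the U5 particle that starts spliceosome activation, had 10.16, 10.24 and 10.38 with control and 10.14, 10.19 and 10.24 with Ncoa3 shRNA. Its groups overlapped, and the change was -0.07 ± 0.0754 (SE; adjusted p = 0.593). Dhx16, which acts just before the first catalytic step, stood at 0.06 (0.530) and was higher without overlap after normalization. Its deposited value was the same on all 3 Ncoa3 shRNA arrays. The deposited difference of Dhx16 was -0.22, so its direction depends on the scale. Dhx35 stood at 0.10 (0.825), and also turned to -0.18 in the deposited values.

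Ddx39a and Ddx39b are close relatives that load export factors onto mRNA, and their means differed in direction. Ddx39a had normalized signals of 7.64, 7.82 and 7.23 with control and 7.35, 7.34 and 6.88 with Ncoa3 shRNA. Experiment 3 was the lowest in both groups, which made the groups overlap, although the difference was below 0 in all 3 experiments (-0.30, -0.48 and -0.34). The change of -0.37 ± 0.194 (SE) did not pass (adjusted p = 0.237) and passed with the experiment as a block (0.0118). The deposited signals of Ddx39a with Ncoa3 shRNA were 7.15, 7.15 and 6.85, near the floor of 7.02. Ddx39b stood at 11.28, 11.30 and 11.09 with control and at 11.29, 11.45 and 11.14 with Ncoa3 shRNA. The groups overlapped, and the difference was above 0 in each experiment (0.01, 0.15 and 0.06). Its change was 0.07 ± 0.0979 (SE; adjusted p = 0.670, and 0.247 with the block), and it was -0.11 in the deposited values. The difference between these genes was not tested. Ddx25, an export and translation helicase best known from the testis, stood at -0.03 (0.878).

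**Figure D2:**
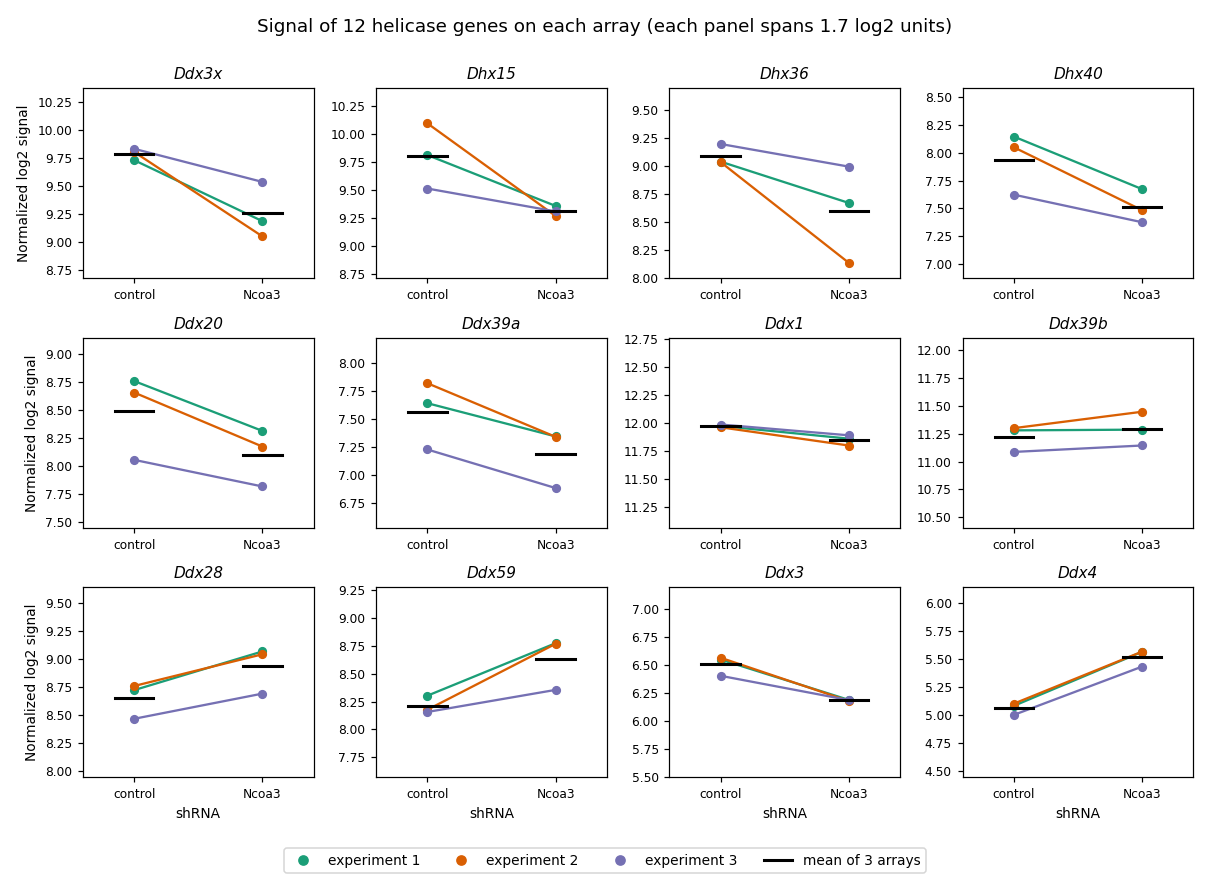
Normalized log2 signal (y axis) of 12 helicase genes with control and with Ncoa3 shRNA (x axis), where a coloured line joins the arrays of 1 experiment and a black bar is the mean of 3 arrays. Lines fall in all 3 experiments for Ddx3x, Dhx15, Dhx36, Dhx40, Ddx20, Ddx39a, Ddx1 and Ddx3. The line of experiment 3 lies apart from the others for Ddx20, Ddx39a and Ddx28.

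Ribosome assembly takes the largest share of the family in the nucleolus, where helicases open and fold the precursor of ribosomal RNA. Of 15 measured genes 0 passed limma's test, with or without the block (1 at an unadjusted p of 0.05 without it), where 19.5% of all genes passed without it and 39.3% with it. Of the 15, 10 lay below 0 and 5 above, and the changes ran from -0.29 to 0.27. Ddx21, a nucleolar helicase that also acts with RNA polymerases, had 10.08, 10.30 and 10.26 with control and 9.95, 10.10 and 10.27 with Ncoa3 shRNA. The groups overlapped, and its change was -0.10 ± 0.105 (SE; adjusted p = 0.553). Its paralogue Ddx50 had 8.49, 8.50 and 8.06 with control and 8.30, 8.16 and 8.09 with Ncoa3 shRNA. Experiment 3 had its Ncoa3 shRNA array just above its control array, and the change of -0.17 ± 0.139 (SE) did not pass (adjusted p = 0.458). A further probe set of Ddx21 gave a deposited difference of -0.51, against -0.34 for the one used. RefSeq lists 9 pseudogenes named for Ddx21, 2 for Ddx18 and 1 each for Ddx50 and Ddx3x, and signal from such copies was not tested.

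Ddx47, a helicase of the small ribosomal subunit, had 11.26, 11.13 and 10.97 with control and 11.22, 11.03 and 10.84 with Ncoa3 shRNA. Here the experiments differed more than the shRNA groups did, and the change was -0.09 ± 0.120 (SE; adjusted p = 0.644). Ddx10, which works on the small subunit, had the lowest change of this role at -0.29 (0.171), with the same deposited value on all 3 Ncoa3 shRNA arrays. Ddx49 had the highest at 0.27 (0.132). It was higher without overlap after normalization, but at 0.01 in the deposited values. Between them stood Ddx24 at -0.14, Dhx37 at -0.10, Ddx27 at -0.08, Ddx51 at -0.06, Dhx33 at -0.02, Ddx31 at 0.00, Ddx18 and Ddx52 at 0.02, Ddx56 at 0.09 and Ddx54 at 0.12. Ddx18, Ddx52, Ddx54 and Ddx56 were below 0 in the deposited values, so their direction depends on the scale.

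Among the 6 genes of translation and mRNA fate 1 passed (16.7%), a share near the 19.5% of all genes, and all 6 means were below 0 after normalization. Ddx3x, an X-linked helicase that helps ribosomes scan structured leaders and joins stress granules, had normalized signals of 9.73, 9.80 and 9.83 with control and 9.18, 9.05 and 9.53 with Ncoa3 shRNA. Every Ncoa3 shRNA array lay below every control array, and the array of experiment 3 was the nearest to them. Ddx3x fell by 0.53 ± 0.132 (SE) on the log2 scale, 1.45-fold, at an adjusted p of 0.0383 in limma's test and 0.0303 with the block. The deposited values were 9.88, 9.97 and 9.88 against 9.09, 8.91 and 9.35. The call was lost after cyclic loess (0.0501), when dim genes were left out of the fit (0.0705), and without any one array except that of Ncoa3 shRNA in experiment 3 (0.0822 to 0.119). Without experiment 1 the adjusted p was 0.283, without experiment 2 it was 0.287 and without experiment 3 it was 0.00735. The change lay between -0.80 and -0.42 over all alternatives run.

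Dhx36, which unwinds G-quadruplexes in mRNA, had 9.04, 9.04 and 9.20 with control and 8.67, 8.13 and 8.99 with Ncoa3 shRNA. No array of one group reached the other, yet the Ncoa3 shRNA arrays spread over a wider range than the difference in experiment 3. The change of -0.49 ± 0.215 (SE) missed the threshold (limma's adjusted p = 0.168, and 0.0865 with the block). Ddx1, a helicase of the tRNA ligase complex and of neuronal RNA granules, had 11.97, 11.96 and 11.99 with control and 11.86, 11.80 and 11.89 with Ncoa3 shRNA. The groups were apart but close, and the deposited value was the same on all 3 control arrays. At -0.12 ± 0.0405 (SE) Ddx1 did not pass (adjusted p = 0.0839), passed with the block (0.0400) and turned to 0.01 when arrays were centred on their medians.

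Dhx9, which resolves RNA and RNA-DNA structures in the nucleus, had 10.67, 10.65 and 10.18 with control and 10.68, 10.39 and 10.17 with Ncoa3 shRNA. Its groups overlapped, and the 2 arrays of experiment 3 lay below all others. The change was -0.09 ± 0.183 (SE; adjusted p = 0.782). Dhx29, a partner of the small ribosomal subunit in initiation, stood at -0.03 (0.950) with experiments of both signs, and Dhx57 at -0.11 (0.338).

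**Figure D3:**
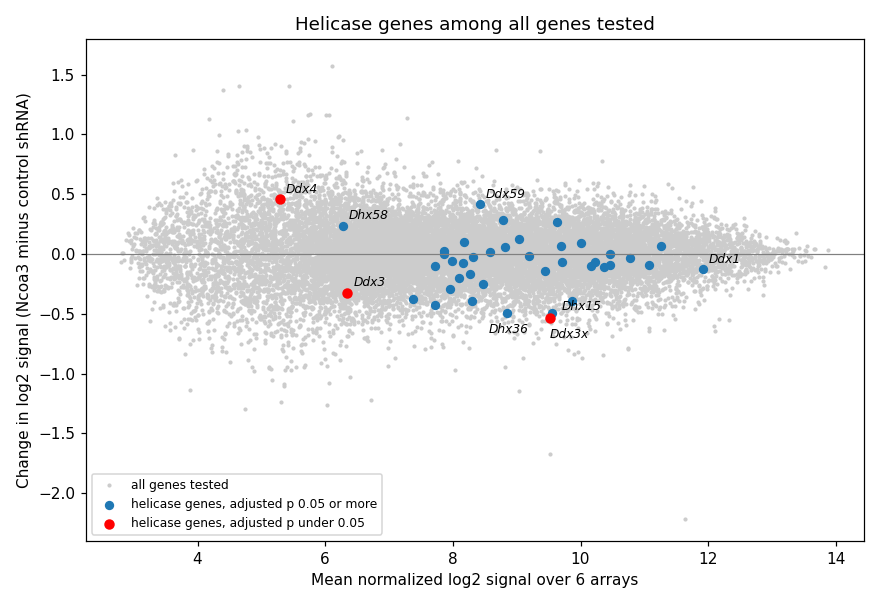
Change in log2 signal (y axis, Ncoa3 shRNA minus control shRNA) against the mean normalized log2 signal over 6 arrays (x axis), with all 18166 genes in grey, helicase genes in blue and those past an adjusted p of 0.05 in red. Ddx3 and Ddx4 lie at the dim end, below the floor of 7.02, Ddx3x lies among the brighter genes, and most helicases sit close to 0.

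Both other genes past the threshold were dim. Ddx3, which RefSeq lists as an autosomal gene with the synonym Ddx3yl, is a relative of Ddx3x with its own probe set (17683014, against 17875945 for Ddx3x). Its normalized signals were 6.55, 6.57 and 6.40 with control and 6.19, 6.18 and 6.19 with Ncoa3 shRNA. The groups did not overlap, but the deposited signal was 6.65 on all 3 control arrays and 5.99 on 2 of the Ncoa3 shRNA arrays. The change was -0.32 ± 0.0588 (SE; limma's adjusted p = 0.0151), and both group means lay below the floor. Sequence shared with Ddx3x was not tested as a source of its signal. Without experiment 1 the adjusted p was 0.275 and without experiment 2 it was 0.268.

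Ddx4, a helicase of germ cells, had normalized signals of 5.08, 5.10 and 5.00 with control and 5.56, 5.56 and 5.43 with Ncoa3 shRNA. All Ncoa3 shRNA arrays were higher. The change was 0.46 ± 0.0554 (SE; limma's adjusted p = 0.00398). Its deposited signal was 5.19 on every control array and 5.38 on every Ncoa3 shRNA array, so normalization is the only source of spread among arrays of a group, and the p-value does not measure variation between cultures. Both group means lay below the floor. Without experiment 1 the adjusted p was 0.107 and without experiment 2 it was 0.109.

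Dhx58, also called Lgp2, tunes the sensing of viral RNA, and was the only measured member of that role. Its normalized signals were 6.20, 6.20 and 6.06 with control and 6.45, 6.44 and 6.29 with Ncoa3 shRNA. The change of 0.24 ± 0.0688 (SE) did not pass (adjusted p = 0.0600) and passed as higher with the block (0.00525), after cyclic loess (0.0239) and after median centring (0.0258). In the deposited values it passed as lower (9.83e-05), and stood at 6.29 on every control array and at 6.25 on every Ncoa3 shRNA array, a difference of -0.04, so its direction depends on the scale. Since the deposited values have no spread within a group, none of these p-values measures variation between cultures. Dhx58 lies below the floor too. Of 16 measured interferon-induced genes 5 were higher and 3 lower, where 10.5% of all genes were higher and 9.04% lower. Their median change was 0.04, and 3 of the 16 were above the floor. Of those that passed, only Cxcl10 was above it. Rsad2 and Ifi44 had no spread within either group in the deposited values, so their p-values do not measure variation between cultures. Mx2, Cxcl10 and Isg15 had none among the control arrays, and Ifit1 and Oas1a none among the Ncoa3 shRNA arrays.

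Ddx20, also called Gemin3, is the helicase of the SMN complex that assembles the snRNPs of the spliceosome. It had 8.76, 8.66 and 8.05 with control and 8.31, 8.17 and 7.82 with Ncoa3 shRNA. The experiments stood further apart than the shRNA groups, while each experiment was lower with Ncoa3 shRNA. The change of -0.39 ± 0.221 (SE) did not pass (adjusted p = 0.277) and passed with the block (0.0205).

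Both mitochondrial helicases had means above 0 after normalization. Ddx28, which assembles the mitochondrial ribosome, had 8.72, 8.76 and 8.46 with control and 9.07, 9.04 and 8.69 with Ncoa3 shRNA. It was higher in each experiment, though the groups overlapped. At 0.29 ± 0.135 (SE) it missed the threshold (adjusted p = 0.200) and met it with the block (0.0152), and the deposited difference was 0.00. Dhx30, a regulator of mitochondrial RNA and of ribosomes, had 9.71, 9.70 and 9.59 with control and 9.77, 9.82 and 9.61 with Ncoa3 shRNA. These arrays overlapped. Its change was 0.07 ± 0.0795 (SE; 0.604) and its deposited difference -0.18.

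Ddx59, whose loss in people affects the palate and digits through cilium signalling, had the highest change of the helicases above the floor. Its normalized signals were 8.30, 8.18 and 8.16 with control and 8.77, 8.77 and 8.35 with Ncoa3 shRNA. The groups did not overlap, and the Ncoa3 shRNA array of experiment 3 lay just above the highest control array. Its change of 0.42 ± 0.130 (SE) missed the threshold in limma's test (adjusted p = 0.0730) and met it with the block (0.0372), after cyclic loess (0.0355) and after median centring (0.0477). Its deposited difference was 0.15. Dhx32 had 10.48, 10.56 and 10.32 with control and 10.59, 10.52 and 10.26 with Ncoa3 shRNA. It showed no difference in mean to 2 decimals, at 0.00 ± 0.110 (SE; 0.989).

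Experiment 3 stood below the others for most helicases after normalization. Experiment 3 had the lowest mean of the 3 experiments for 33 of the 41 genes (80.5%), where it was lowest for 62.6% of all genes, and the median of experiment 3 minus the mean of experiments 1 and 2 was -0.24 over the helicases and -0.08 over all genes. In limma's F-test of the experiment terms, with shRNA group in the model, 8 helicases passed (19.5%), where 18.8% of all genes did. All 8 were lower in experiment 3 after normalization, which were Ddx18, Ddx20, Ddx27, Ddx28, Ddx39a, Ddx47, Dhx37 and Dhx58. Before normalization Dhx58 did not vary between experiments, at 6.29 with control and 6.25 with Ncoa3 shRNA in each. Its F-test therefore reflects normalization and does not measure a difference between cultures. Among all genes 14.8% passed as lower in experiment 3 and 4.01% as higher.

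Ddx27, a helicase of the large ribosomal subunit, had 8.36, 8.40 and 7.83 with control and 8.37, 8.32 and 7.68 with Ncoa3 shRNA. In both groups experiment 3 lay clearly below the other arrays, with limma's adjusted p = 0.0368. The other 7 had adjusted p-values between 0.0442 for Ddx39a and 0.0484. Dhx36 and Ddx3x went the other way, with experiment 3 above the mean of experiments 1 and 2 by 0.38 and 0.24, and neither passed (0.249 and 0.323). The F-test of limma gave 0 helicases with the deposited values (15 at an unadjusted p of 0.05), where 1.91% of all genes passed, 0 after cyclic loess (14 unadjusted, 1.32%) and 0 with the experiment alone in the model (12 unadjusted, 0.292%). The marker counts that follow are from the F-test after quantile normalization, with shRNA group in the model. There 18.8% of all genes passed, and 4.01% as higher in experiment 3. Astrocyte markers differed between experiments for 6 of 7 genes, none of them lower in experiment 3. Their summed normalized signal was 12.61, 12.73 and 13.12 in experiments 1, 2 and 3. Dividing-cell markers differed for 3 of 5, all lower in experiment 3 (9.05, 8.97 and 8.68). Of these 5 markers 1 lay above the floor. Mki67 and Top2a did not vary within a group before normalization. An F-test of these 2 genes therefore reflects normalization and does not measure a difference between cultures. Neuron markers differed for none of 11 (15.84, 15.89 and 15.94). The part of these cells in the helicase values was not tested.

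**Figure D4:**
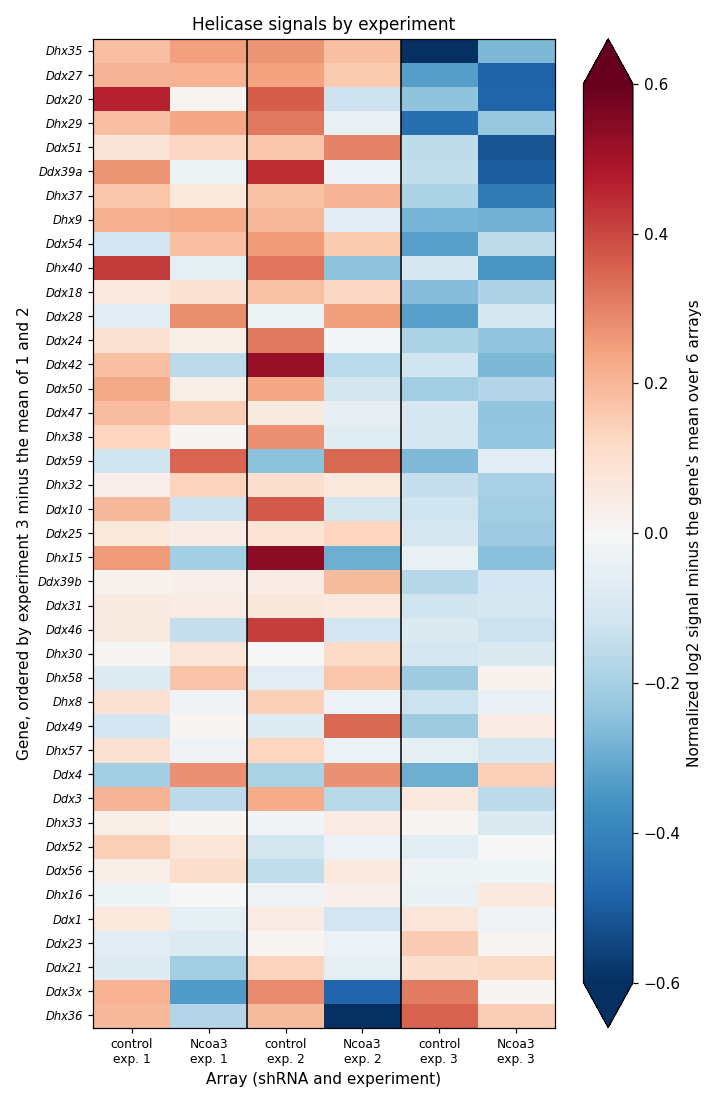
Normalized log2 signal minus each gene's mean over 6 arrays (colour, with a fixed range) for the 41 helicase genes (ordered by experiment 3 minus the mean of experiments 1 and 2) on each array (in experiment order with control beside Ncoa3 shRNA). Both arrays of experiment 3 are blue for most genes, and Ddx3x and Dhx36 at the bottom are low on the Ncoa3 shRNA arrays of experiments 1 and 2.

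Among RNA helicases outside the Ddx and Dhx symbols, 1 of 19 measured genes was higher and 3 were lower, a share of 21.1% that is near the 19.5% of all genes, and the median change was -0.08. Tdrd9, a helicase of the piRNA pathway in germ cells, fell by 0.82 (limma's adjusted p = 0.000936), Ythdc2, which binds methylated RNA, by 0.45 (0.0148) and Ighmbp2, a helicase needed by motor neurons, by 0.45 (0.0371). Tdrd12, a relative of Tdrd9, was higher by 0.19 (0.0362) after normalization, but at -0.08 in the deposited values. Both Tdrd genes lay below the floor. The deposited value of Ythdc2 was 7.52 on every control array, and its deposited mean with Ncoa3 shRNA, 6.78, lay below the floor. The translation helicases Eif4a1 at -0.06 and Eif4a2 at -0.26, the spliceosome helicases Snrnp200 at -0.19 and Aqr at 0.10, and the decay helicase Upf1 at 0.02 did not pass. Of 47 measured cofactors and complex partners of the helicases, 1 rose and 2 fell (6.38%, against 19.5% of all genes). The export adaptor Alyref rose by 0.25 (0.0271), while Gpatch3, dim and below the floor, fell by 0.39 (0.0316) and Gpatch2, a G-patch protein that can activate Dhx15, by 0.28 (0.0303). With the block 3 of the other helicases were higher and 4 lower (36.8%), and 1 of the cofactors was higher and 10 lower (23.4%), where 39.3% of all genes passed.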

How the data were processed

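Per the submitters' processing notes, Affymetrix Expression Console made the values, and the authors deposited 1 log2 signal for each probe set on each array. Its version, settings and genome build were not given in the sources used here. Of 36685 probe sets, 18511 carry 1 symbol in the platform's annotation, which can be old, and gave 18166 genes. All 41 members were found in RefSeq's gene table by gene ID. Genes were tested two-sided with limma 3.58.1 in R 4.3.3 (lmFit, eBayes with a trend) after quantile normalization of all 6 arrays, with Benjamini-Hochberg adjustment over all genes at 0.05. The fit was checked on simulated data whose arrays were drawn independently, without shared values or an experiment effect. That check does not cover these properties of the real arrays. The labels number the experiments, and deviations from group means correlated within experiments at r = 0.75, 0.56 and 0.80 over genes, so results of the fit blocked by experiment stand beside those it alters. The labels do not say that experiments used separate animals, so p-values measure the spread between these samples. The floor is the 95th percentile of 1344 olfactory and vomeronasal receptor genes. The number of arrays limits the precision. Values per array are given for members that passed, the brightest member of each role, members chosen by name and paralogue pairs. Dhx40, Ddx27, Ddx28 and Ddx59, and the other helicases named without passing, were added after their values were seen. Of 52 genes listed by role, 12 had no probe set of their own and are not analysed here. The members and lists were chosen with earlier results of these data known. Alternatives were other normalizations, the block, a filter on dim genes, the mean of probe sets, no trend, and leaving out each array or experiment.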

Additional observations from a re-analysis of the deposited data

How the results depend on the processing

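The count of 3 helicases past the threshold became 17 with deposited values, 6 with median-centred arrays, 5 with cyclic loess, 10 with the replicate block, 26 with the block on deposited values and 0 of 38 without dim genes (6 at an unadjusted p of 0.05 in limma's test). Without dim genes 6.43% of all genes fitted passed. The helicase count ranged from 0 to 12 when an array or experiment was left out. It was 0 without experiment 1 or experiment 2 (3 at an unadjusted p in each), where 1.23% and 0% of all genes passed. It was 12 without experiment 3, where 46% of all genes passed. Over all genes 3548 became 8579 with deposited values, 7147 with the block, 10932 with the block on deposited values and 750 without dim genes, and ranged from 0 to 8354 when arrays or experiments were left out. The 7 other helicases and cofactors became 23 with deposited values, 13 with cyclic loess, 18 with the block, 37 with the block on deposited values and 1 without dim genes, and ranged from 0 to 23. The 8 helicases that passed the F-test of the experiment terms became 0 with deposited values, 0 with cyclic loess and 0 with the experiment alone in the model. The change of Ncoa3 ranged from -1.15 to -0.86. It was -0.92 without experiment 1 and -0.88 without experiment 2, where it did not pass. The cause of these shifts was not tested, beyond the fewer arrays or genes in a fit. With deposited values, blocked or not, changes turned to -0.27 for Ddx18, -0.11 for Ddx39b, -0.26 for Ddx52, -0.16 for Ddx54, -0.15 for Ddx56, -0.22 for Dhx16, -0.18 for Dhx30, -0.21 for Dhx32, -0.18 for Dhx35 and -0.044 for Dhx58. Median centring turned Ddx1 to 0.013 and Ddx25 to 0.042, and cyclic loess turned Ddx18 to -0.0013 and Dhx32 to -0.0044. Leaving out an array or experiment turned some members with small changes, which ranged from -0.11 to 0.11 for Ddx18, -0.10 to 0.071 for Ddx25, -0.26 to 0.15 for Ddx27, -0.063 to 0.051 for Ddx31, -0.0050 to 0.14 for Ddx39b, -0.19 to 0.0040 for Ddx47, -0.23 to 0.18 for Ddx51, -0.027 to 0.099 for Ddx52, -0.0083 to 0.28 for Ddx54, -0.27 to 0.14 for Dhx29, -0.064 to 0.10 for Dhx32, -0.059 to 0.021 for Dhx33, -0.17 to 0.27 for Dhx35, -0.23 to 0.084 for Dhx37 and -0.25 to 0.033 for Dhx9. Members below the floor are limited by signal over background.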
